A study of Homo sapiens with 16 samples.

Results

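BMAL1 binding at 0 and 4 h was compared between U2OS, a human osteosarcoma cell line, and its derivative U2OS-CHR, which the series' text calls U2OS-CHRONO. Chromatin immunoprecipitation with sequencing (ChIP-seq) for BMAL1 gave 1 peak list per line and time, and overlapping peaks of the 4 lists (22536 peaks) were joined into 12290 regions. A region was called CHRONO-only when it held a peak at both times in U2OS-CHR and at neither time in U2OS, which was the case for 1287 regions (10.5% of all regions). The opposite pattern, called U2OS-only, held for 301 regions (2.45%). Regions with a peak in all 4 lists numbered 1627 (13.2%). All cells of the BMAL1 series were treated with 200 nM dexamethasone, a glucocorticoid that resets the clock, and collected every 4 h, the 0 h sample being taken 4 h ahead of the trough of a luciferase reporter driven by the BMAL1 promoter. The labels do not say how U2OS-CHR was made or whether it is 1 clone. They name a Myc antibody for 1 further ChIP list from this line, with no time and no treatment, and the series' text calls its target Myc-CHRONO. No line and time had a second library, so a difference between lines cannot be told apart from a difference between libraries. The labelled bone origin could not be checked, since peaks do not measure expression. A region of the 4 lists lay within 1 kb of the start of 0 of 15 osteoblast marker genes and 3 of 20 markers of other cell types. The share over all genes is not given here, so these counts cannot be set against it.

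BMAL1 pairs with CLOCK, and the pair binds DNA at E-boxes, most often CACGTG, and drives transcription of the period, cryptochrome, NR1D and PAR-bZIP genes. The period and cryptochrome proteins feed back on BMAL1:CLOCK. CHRONO, the product of CIART, is another repressor of BMAL1:CLOCK and is itself encoded by a BMAL1 target gene. CCAAT is the recognition sequence of NF-Y, a general promoter factor.

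The following stretches show what these 2 motifs look like in promoters under the regions, and their shares over all promoters are given further on. Each is the 200 bases before the start of a gene whose promoter overlapped a region, from the RefSeq promoter table (GRCh38.p14), 5′ to 3′ on the strand of the gene. Capitals mark CACGTG, and CCAAT or its reverse complement ATTGG. SBNO1 (chr12:123364848-123365047, minus strand), RMP64 (chr3:113019672-113019871, minus strand) and AKAP10 (chr17:19977829-19978028, minus strand) had CHRONO-only regions. COQ8A (chr1:226940094-226940293, plus strand), ATP5MC1 (chr17:48892587-48892786, plus strand) and TMEM97 (chr17:28319000-28319199, plus strand) had U2OS-only regions. PER1 (chr17:8152405-8152604, minus strand) had a region of all 4 lists and is shown as a clock gene.
SBNO1: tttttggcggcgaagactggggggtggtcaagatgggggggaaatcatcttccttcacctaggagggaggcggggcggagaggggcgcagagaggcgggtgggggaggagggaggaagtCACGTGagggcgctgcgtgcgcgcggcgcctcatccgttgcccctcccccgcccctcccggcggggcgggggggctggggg
RMP64: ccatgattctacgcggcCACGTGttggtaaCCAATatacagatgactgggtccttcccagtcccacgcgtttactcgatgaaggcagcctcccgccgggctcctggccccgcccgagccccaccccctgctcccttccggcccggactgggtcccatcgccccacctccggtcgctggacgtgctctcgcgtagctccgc
AKAP10: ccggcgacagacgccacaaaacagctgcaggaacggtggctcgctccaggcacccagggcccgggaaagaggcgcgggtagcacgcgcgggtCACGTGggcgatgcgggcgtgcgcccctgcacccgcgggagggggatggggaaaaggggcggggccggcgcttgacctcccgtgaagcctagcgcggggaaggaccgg
COQ8A: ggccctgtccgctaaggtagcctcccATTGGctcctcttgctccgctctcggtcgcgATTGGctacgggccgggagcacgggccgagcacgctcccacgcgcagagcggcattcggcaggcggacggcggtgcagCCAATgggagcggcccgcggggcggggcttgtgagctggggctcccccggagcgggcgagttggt
ATP5MC1: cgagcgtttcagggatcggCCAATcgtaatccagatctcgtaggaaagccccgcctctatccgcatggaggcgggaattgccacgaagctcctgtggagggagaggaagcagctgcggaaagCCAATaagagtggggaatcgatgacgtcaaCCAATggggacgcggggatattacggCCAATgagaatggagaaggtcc
TMEM97: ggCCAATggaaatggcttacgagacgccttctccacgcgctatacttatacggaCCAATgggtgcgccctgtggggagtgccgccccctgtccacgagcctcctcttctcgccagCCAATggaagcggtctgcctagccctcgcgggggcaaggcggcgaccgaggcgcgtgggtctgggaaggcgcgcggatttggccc
PER1: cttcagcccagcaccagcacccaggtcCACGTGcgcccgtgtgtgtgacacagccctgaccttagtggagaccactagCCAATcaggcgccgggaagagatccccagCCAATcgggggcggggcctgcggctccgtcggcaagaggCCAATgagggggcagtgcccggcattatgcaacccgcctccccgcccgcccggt
The CHRONO-only examples were the 3 highest-scoring named genes with CACGTG in a stretch free of other protein-coding genes, and the U2OS-only examples the 3 highest with CCAAT, so the motif itself is no finding in them. SBNO1 carried CACGTG 81 bases before the start and AKAP10 carried it 108 bases before, each without CCAAT. RMP64 held CACGTG 183 bases before the start with CCAAT 13 bases downstream of it, at 170. COQ8A and TMEM97 each held CCAAT 3 times and ATP5MC1 held it 4 times, none of them with CACGTG in these bases. In the longer promoter window used for the shares further on, ATP5MC1 also held 1 CACGTG. PER1 held both, with CACGTG at 173 and CCAAT at 122, 93 and 54 bases before the start. It was picked among the core clock genes by CACGTG in a stretch free of other protein-coding genes, so its CACGTG is no finding either.

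The CHRONO-only regions were 4.28 times as many as the U2OS-only regions when every peak was used. The U2OS lists held 3397 peaks at 0 h and 5287 at 4 h, and the U2OS-CHR lists held 5612 and 8240. Depth is not known for any of these lists, so the U2OS-CHR list of each time was also kept to as many of its highest scores as the U2OS list held. The score is the authors' own value for each peak and is used here only within a list. At these equal list lengths 630 of 8980 regions were CHRONO-only (7.02%), 439 were U2OS-only (4.89%) and 1446 lay in all 4 lists (16.1%), a ratio of 1.44. This cut removes U2OS-CHR peaks only, so by construction it can add U2OS-only regions but not remove them, and it removes CHRONO-only ones. A CHRONO-only region could be gained only where a removed peak had joined it to a U2OS peak. All 301 U2OS-only regions and 630 of the 1287 CHRONO-only regions kept their class under both settings. The lowest score kept in U2OS-CHR was 68.37 at 0 h and 66.48 at 4 h, and the highest score left out was the same value, shared by 28 peaks at 0 h and 11 at 4 h.

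Among regions in exactly 2 lists, the line was shared more often than the time. Of the 2384 regions with a peak in exactly 2 of the 4 lists, 66.6% held both times of 1 line, 21.6% held both lines at 1 time and 11.7% held neither. With lists of equal length the same shares were 61.5%, 25.7% and 12.7% of 1737 regions. For single lists, the second list's length, 3397 peaks at 0 h and 5287 at 4 h once lengths were made equal, moves with the shares. With equal lengths, 67.8% of the U2OS 0 h peaks had a peak in U2OS at 4 h, against 59.3% in U2OS-CHR at 4 h, a list of the same length, and with every peak the second share was 66.1%. Of the U2OS-CHR 0 h peaks at equal lengths, 82.0% had a peak in U2OS-CHR at 4 h and 64.7% in U2OS at 4 h. Of the U2OS 4 h peaks at equal lengths, 43.3% had a peak in U2OS at 0 h and 42.1% in U2OS-CHR at 0 h, lists of the same length. With every peak the share in U2OS-CHR at 0 h was 51.1%. In the longer U2OS-CHR 4 h list it was 52.4% at equal lengths and 60.5% with every peak. These are descriptions: 2 lists against 2 cannot give a two-sided exact p under 0.333.

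**Figure D1:**
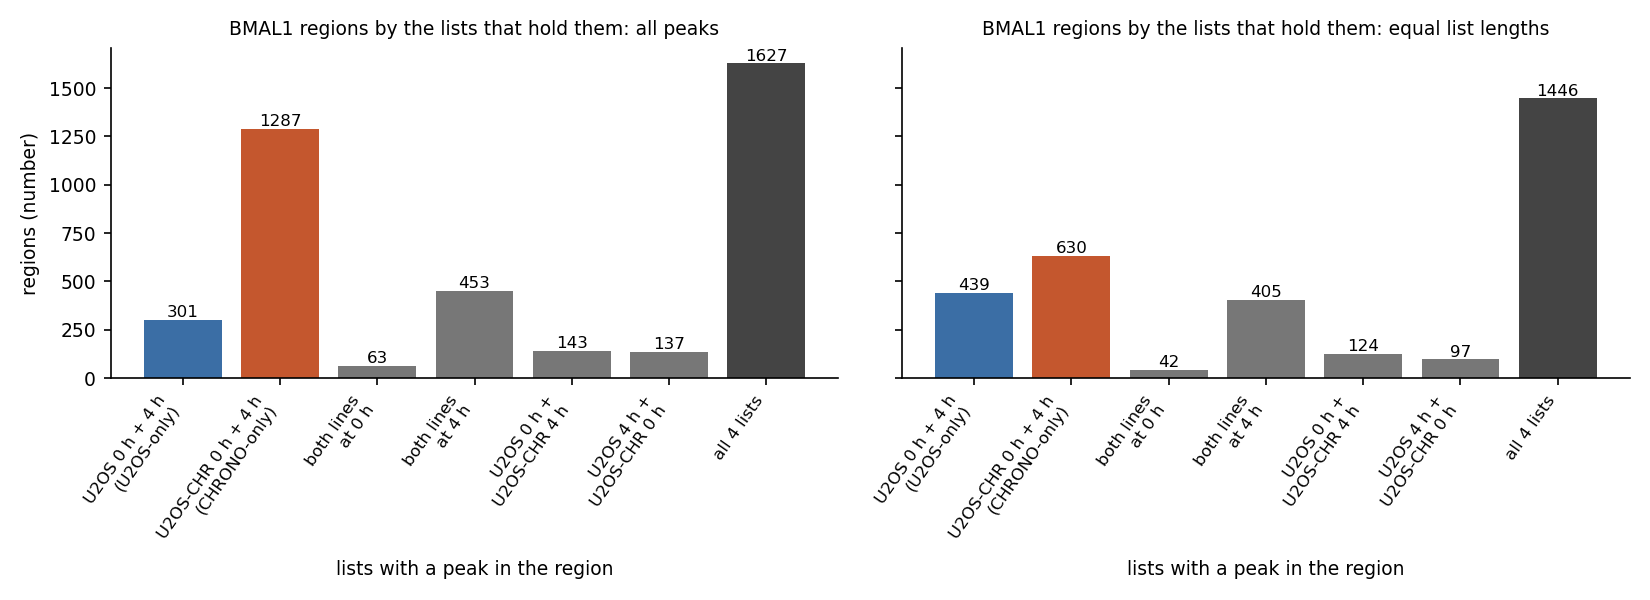
Number of BMAL1 regions (vertical axis) by the lists that held a peak in them (horizontal axis), with every peak on the left and at equal list lengths on the right, for regions in 2 or 4 of the lists. The CHRONO-only bar falls from 1287 to 630 and the U2OS-only bar rises from 301 to 439 at equal list lengths. The CHRONO-only bar exceeds each of the 4 grey bars in both panels, and the U2OS-only bar lies below the bar of both lines at 4 h with every peak (453) and above it at equal list lengths (405).

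The line-specific regions were mostly of middle rank in their lists. CHRONO-only regions had a median score percentile of 44.1 in the U2OS-CHR 0 h list and 59.1 in the 4 h list. U2OS-only regions had medians of 44.0 and 50.5 in the U2OS lists. Regions of all 4 lists had medians from 73.0 to 87.0, and regions of a single list from 22.3 to 28.2. The highest CHRONO-only peak was number 197 of the U2OS-CHR list at 0 h and number 171 at 4 h, and the highest U2OS-only peaks were numbers 145 and 170 of the U2OS lists. Most line-specific regions had no near neighbour in the other line: a U2OS peak of 0 or 4 h lay within 1 kb of 7.77% of the CHRONO-only regions, and a U2OS-CHR peak within 1 kb of 6.98% of the U2OS-only ones.

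The 8 BMAL1 lists at 8, 12, 16 and 20 h were not used to choose the regions. CHRONO-only regions held a U2OS-CHR peak in 19.2%, 37.0%, 78.1% and 60.6% of cases at these times, and a U2OS peak in 0.31%, 1.63%, 11.1% and 27.3%. The U2OS-CHR share was higher at 4 of 4 times, by 38.6 ± 20.3 percentage points (mean ± SD over 4 times). The two-sided exact paired sign-flip permutation p was 0.13, and no lower value can be reached with 4 pairs. At equal list lengths the difference was 24.2 ± 16.8 points, again with U2OS-CHR higher at 4 of 4 times, though at 8 h the shares were 0.79% and 0.32% in lists of 337 peaks. Regions of all 4 lists also held U2OS-CHR peaks more often, by 28.0 ± 18.7 points with every peak and 10.5 ± 4.53 points at equal lengths, so the direction was the same in regions that both lines held. Whether the CHRONO-only difference exceeds this one was not tested.

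U2OS-only regions held a U2OS peak in 0.66%, 13.95%, 22.3% and 54.8% of cases at 8, 12, 16 and 20 h, and a U2OS-CHR peak in 2.33%, 3.99%, 32.6% and 27.2%. The mean difference, U2OS-CHR minus U2OS, was -6.40 ± 16.4 points with U2OS higher at 12 and 20 h only (exact sign-flip p = 0.75), and it was 0.66 points without 20 h. At 16 h the U2OS-CHR list held 9391 peaks against 2794 in U2OS. At equal list lengths U2OS was higher at 4 of 4 times, by a mean of 14.3 points (U2OS-CHR minus U2OS, -14.3 ± 9.86, exact sign-flip p = 0.13). The 16 h shares became 23.0% and 5.92%, and the 8 h shares 1.14% and 0% of 439 regions. This cut removed U2OS-CHR peaks only, those under 146.17 at 8 h and 107.95 at 16 h. The same cut at 0 and 4 h had added regions to the class, so part of this direction is built in. The direction for this class at 8 and 16 h therefore depended on list length.

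**Figure D2:**
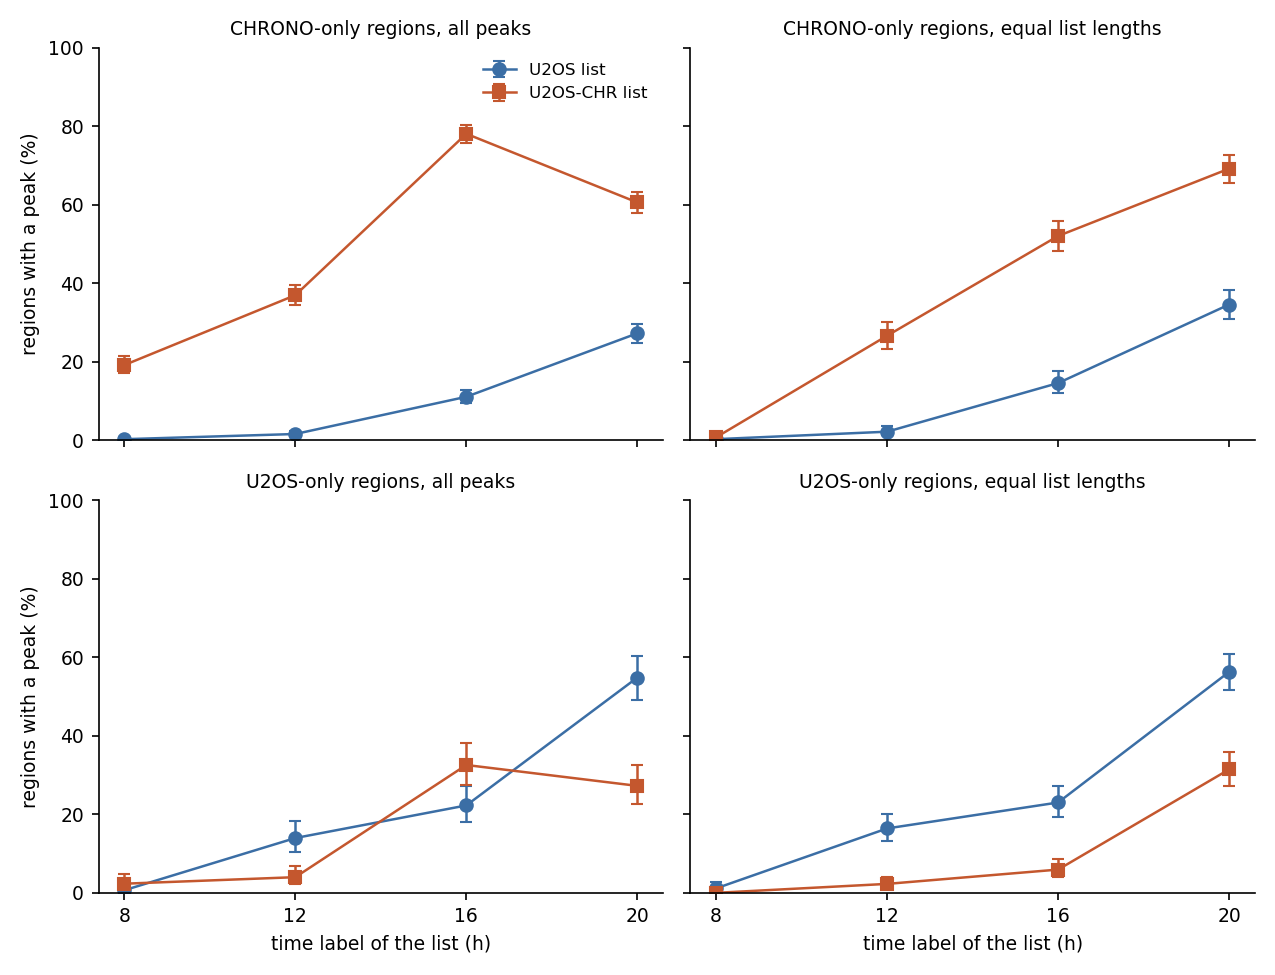
Share of CHRONO-only (top) and U2OS-only (bottom) regions with a peak in each line's list (vertical axis, %) against the time label (horizontal axis, h), with every peak on the left and at equal list lengths on the right; bars are Wilson 95% intervals, which cover counting error only. U2OS-CHR lies above U2OS in all 4 times of both top panels, and the lines cross in the bottom left panel, where U2OS-CHR reached 32.6% at 16 h.

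Over the 6 times, 882 CHRONO-only regions (68.5%) held no U2OS peak at any time, and 145 held a U2OS-CHR peak at all 6 times. Of these 145, 70 had no U2OS peak at any time. Of the U2OS-only regions, 167 (55.5%) held no U2OS-CHR peak at any time and 2 held a U2OS peak at all 6 times. CHRONO-only regions without any further peak in either line at 8 to 20 h numbered 137, and U2OS-only ones 78.

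CHRONO-only regions lay near gene starts more often than U2OS-only ones. The start of a protein-coding gene lay within 1 kb of 29.5% of the CHRONO-only regions (Wilson 95% interval 27.1 to 32.1), 13.3% of the U2OS-only regions (9.91 to 17.6), 29.6% of those in all 4 lists and 23.0% of all regions. These intervals cover counting error only, not the spread between libraries. For the 4195 of 20037 genes without a stated start, either end of the gene was taken. The shares were 29.4% and 14.6% at equal list lengths. U2OS-only regions lay over 50 kb from any start and outside genes in 22.3% of cases, against 16.0% of the CHRONO-only regions.

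The Myc list was not used to choose the regions. A Myc peak overlapped 9.63% of the CHRONO-only regions (8.14 to 11.4), 3.99% of the U2OS-only regions (2.30 to 6.84), 33.7% of the regions in all 4 lists and 9.77% of all regions. At equal list lengths the 4 shares were 13.5%, 5.24%, 36.2% and 12.1%. With peaks of a score of at least 100 only, the CHRONO-only share was 19.8% (129 of 653) and the U2OS-only share 8.79% (8 of 91). The classes were formed again from these peaks, so a region of either class may hold a lower-scoring peak of the other line. Of the 1287 CHRONO-only regions with every peak used, 288 had a U2OS-CHR score of at least 100 at 0 h. The share over all regions was not computed at this score. The Myc list came from U2OS-CHR, the line that defined 1 of the classes, and regions in all 4 lists also had the higher scores, whose part in these shares was not tested.

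**Figure D3:**
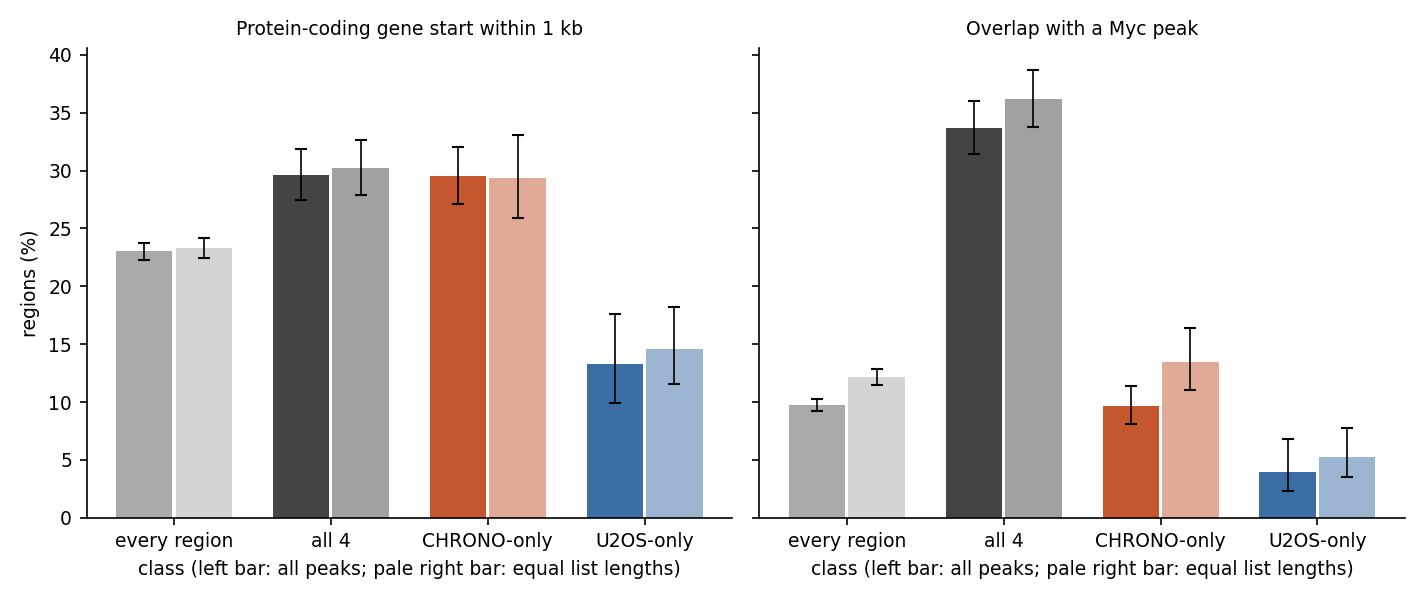
Share of regions (vertical axis, %) with a protein-coding gene start within 1 kb (left) and with a Myc peak (right) in each class (horizontal axis), with every peak (full colour) and at equal list lengths (pale); bars are Wilson 95% intervals. U2OS-only regions are lowest in both panels, and CHRONO-only regions match those of all 4 lists at gene starts (29.5% and 29.6%) but not for Myc peaks (9.63% and 33.7%).

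The U2OS-only promoters stood out by CCAAT, which the COQ8A, ATP5MC1 and TMEM97 stretches above carry in several copies. Promoters here are the RefSeq windows of 250 bases before to 50 after each start, 15842 in all, and motifs were searched on both strands. CCAAT lay in 31 of the 33 promoters that overlapped a U2OS-only region (93.9%, Wilson 95% interval 80.4 to 98.3). It lay in 37.6% of the 250 CHRONO-only promoters (31.8 to 43.7), in 47.6% of the 374 promoters of all 4 lists and in 35.8% of every promoter. Only RANGAP1 and ECT2 lacked it among the 33. At least 2 copies were found in 63.6% of the U2OS-only promoters, 13.6% of the CHRONO-only ones and 12.1% of every promoter. The highest count was 5, in CENPX. Counted by region, since 3 of the U2OS-only regions lay at 2 or more promoters, CCAAT was found at 27 of 29. The nearest CCAAT lay a median of 45.5 bp from the centre of the U2OS-only region, 70.2 bp from the centre of a CHRONO-only region and 111 bp from that of a region in all 4 lists. CACGTG, where present, lay nearer in each class, at medians of 24, 35.5 and 62.2 bp. Only the nearest copy was measured, and U2OS-only promoters more often held several CCAAT, whose part in the distance was not tested. Median peak widths at 0 and 4 h were 299 and 324 bp in U2OS-only regions and 340 and 415 bp in CHRONO-only ones. They were 382 to 564 bp in regions of all 4 lists, and the part of width in the distances was not tested either.

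The CCAAT share was highest where both times were required. It was 86.8% of 53 promoters at equal list lengths, but 51.7% of 209 with the 4 h lists alone and 62.9% of 175 with the 0 h lists alone. In lists that the choice did not use, promoters with a U2OS peak at both 16 and 20 h and no U2OS-CHR peak at either held CCAAT in 16 of 24 cases (66.7%, 46.7 to 82.0), and 22 of these 24 promoters were not among the 33, 14 of them with CCAAT. The matching U2OS-CHR class at 16 and 20 h gave 38.4% of 284. Under any peak of a list, CCAAT was found in 46.6% to 56.6% of promoters in the 6 U2OS lists and in 40.7% to 44.5% in the 6 U2OS-CHR lists, and U2OS was higher at each of the 6 times, also at equal list lengths, where the 12 h shares were 48.3% and 47.5%. CCAAT was singled out among 8 motifs after the shares had been seen, and no test was made.

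CACGTG ordered the classes differently. It was found in 54.5% of the promoters of all 4 lists (49.5 to 59.6 by Wilson interval), in 29.2% of the CHRONO-only promoters (23.9 to 35.1), in 33.3% of the U2OS-only promoters (19.8 to 50.4) and in 8.45% of every promoter. The interval of the U2OS-only share overlapped that of all 4 lists, and no difference between classes was tested. Of the 33 U2OS-only promoters, 11 held both motifs. The ETS-type sequence CCGGAA, another motif searched, was found in 32.8% of the CHRONO-only promoters, 32.9% of those of all 4 lists, 18.2% of the U2OS-only promoters (26.4% at equal list lengths) and 22.3% of every promoter. TGACTCA, the AP-1 site, was found in 2.4% of the CHRONO-only promoters, 0% of the U2OS-only promoters (up to 10.4% by Wilson interval), 5.08% of those of all 4 lists and 3.96% of every promoter.

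**Figure D4:**
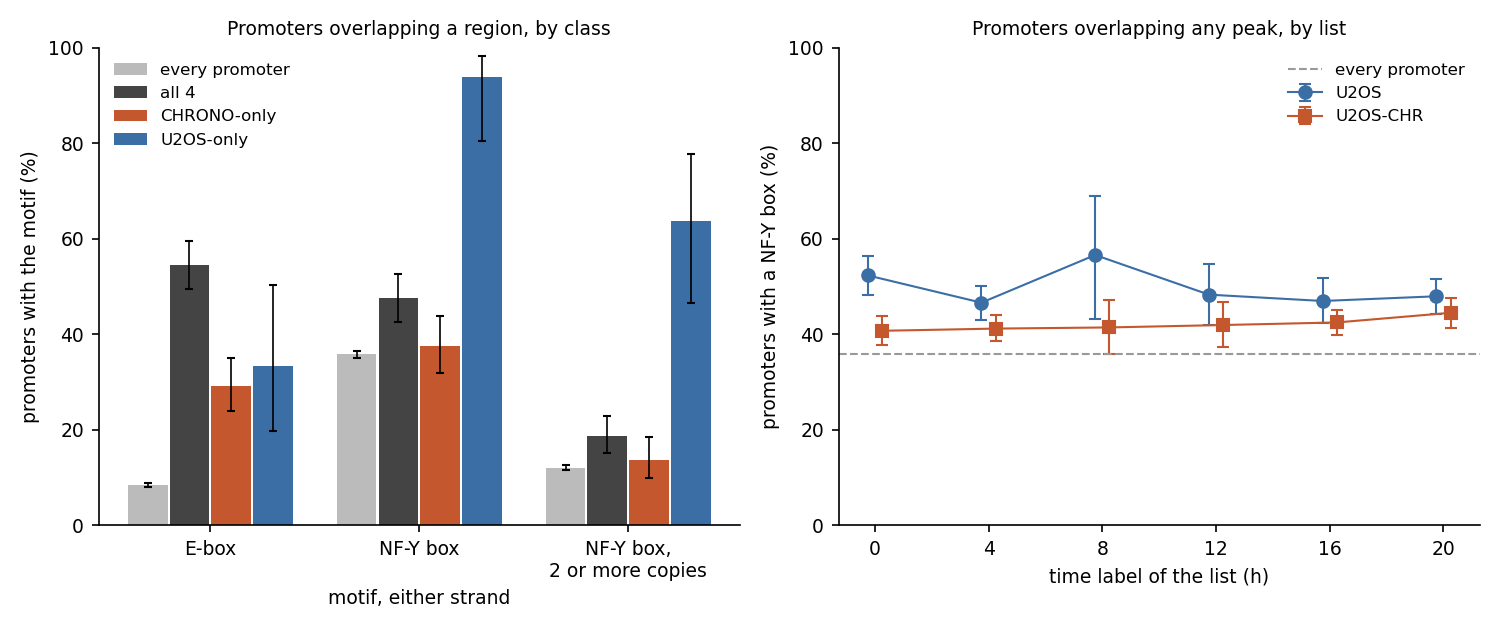
Left, share of promoters (vertical axis, %) with the E-box CACGTG, with the NF-Y box CCAAT and with at least 2 copies of the NF-Y box, by class; right, share with the NF-Y box among promoters under any peak of each list against its time label (h), the dashed line being every promoter (35.8%). Bars are Wilson 95% intervals; the U2OS-only NF-Y bars (93.9% and 63.6%) stand above all other classes, and U2OS lies above U2OS-CHR at each of the 6 times.

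At single genes, 2.09% of all 20037 protein-coding genes had a CHRONO-only region within 1 kb of the start, and 1% did at equal list lengths. The 20 named genes of this class, those with the highest mean score percentile among the 201 with such a region under both settings, lay at 19 regions. They had a U2OS-CHR peak at 1 or more of the other 4 times in 19 of 20 cases, and 11 had no U2OS peak at any time. INO80, the ATPase of a chromatin remodelling complex, led them (chr15:41114962-41115969), with scores of 358.68 at 0 h and 312.62 at 4 h in U2OS-CHR. Its region was held by U2OS-CHR at all 6 times and by U2OS at 12, 16 and 20 h, so the U2OS lists lacked it at 0, 4 and 8 h only.

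SMAD2, a signal transducer of TGF-beta, scored 250.03 at 0 h and 209.13 at 4 h (chr18:47931123-47931829), with further U2OS-CHR peaks at 12, 16 and 20 h and none in U2OS at any time. PAPSS1, which makes the sulfate donor of the cell, scored 159.53 and 197.99 (chr4:107720178-107720604) and was held by U2OS-CHR at all 6 times with no U2OS peak. ACBD5, a peroxisomal acyl-CoA binding protein, scored 154.45 and 341.63, with further U2OS-CHR peaks at 8, 16 and 20 h and none in U2OS. The regions of these 3 genes were thus absent from all 6 U2OS lists.

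BMI1, a Polycomb subunit, scored 233.18 and 287.29 and lay under a Myc peak, as did SBNO1, RMP64 and MRPL36, the last a protein of the mitochondrial ribosome. SBNO1, whose E-box is printed above, scored 205.13 and 346.25, and U2OS held a peak there at 16 and 20 h. AKAP10, a scaffold of protein kinase A, scored 168 and 173.01 and had no U2OS peak at any time. The divergent pair S100PBP and YARS1, the latter the cytosolic tyrosyl-tRNA synthetase, shared 1 region with scores of 134.65 and 234.9. SLC6A9, a glycine transporter, was the only named gene of the class with no U2OS-CHR peak at 8 to 20 h.

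Several of the highest CHRONO-only regions lay away from gene starts. The highest of all (chr12:5376589-5378503) scored 428.49 at 0 h and 616.55 at 4 h, lay in no protein-coding gene and was 115629 bp from the nearest start, that of the neurotrophin gene NTF3. It was held by U2OS-CHR at all 6 times and by U2OS at none. A region inside MAP4 (chr3:48033801-48034483), a microtubule-associated protein, scored 323.8 and 490, and a region 14857 bp from the start of GADD45B (chr19:2490984-2491842), a stress-response gene, scored 239.68 and 385.14. The GADD45B region had no U2OS peak at any time, and the MAP4 region had 1, at 20 h.

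U2OS-only regions lay within 1 kb of the start of 45 genes (0.225%), and 75 genes (0.374%) at equal list lengths. The 20 named genes of this class lay at 18 regions. A U2OS peak was present at 1 or more of the other 4 times for 13 of them and at all 4 for 0, and 10 had no U2OS-CHR peak at any time. COQ8A, needed for coenzyme Q synthesis, led them (chr1:226939938-226940496), with scores of 137.61 at 0 h and 149.15 at 4 h in U2OS, a further U2OS peak at 20 h and none in U2OS-CHR. ATP5MC1, a subunit of the mitochondrial ATP synthase, scored 143.06 and 125.89 (chr17:48892364-48892984), lay under a Myc peak and was held by both lines at 16 and 20 h. TMEM97, a membrane protein of the endoplasmic reticulum, scored 75.81 and 129.19 and was held by no other list of either line.

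ELK1, an ETS transcription factor whose promoter held CCAAT 4 times, scored 105.94 and 74.28, and U2OS-CHR held it at 16 h. MXD4, a MAX partner, scored 85.31 and 87.38 with a further U2OS peak at 20 h and none in U2OS-CHR. SLC7A8, an amino acid transporter, scored 74.36 and 72.7 with U2OS peaks at 16 and 20 h and none in U2OS-CHR. ALG3, an enzyme of N-glycan assembly, shared its region with EEF1AKMT4 and the EEF1AKMT4-ECE2 readthrough gene. POLR1E, a subunit of RNA polymerase I, scored 78.97 and 107.69, and ADISSP scored 83.76 and 93.96. Neither had a peak in any list of 8 to 20 h.

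The highest U2OS-only regions lay inside or away from genes rather than at starts. A pair of them lay inside KLHDC4 on chromosome 16: chr16:87725486-87726019 scored 317.69 and 344.92 and was held by U2OS at all 6 times, and chr16:87723266-87723632 scored 331.99 and 302.89. A region inside LATS2 (chr13:20997609-20998083), a Hippo pathway kinase, scored 286.37 and 407.31 and was held by U2OS at 12, 16 and 20 h as well. None of these 3 had a U2OS-CHR peak at any time. A region 22549 bp from the start of TET3, a methylcytosine dioxygenase, scored 271.07 and 168.54, and U2OS-CHR held it at 16 h.

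Gene lists of pathways held few members of either class. Of 30 genes of glycolysis and glucose uptake, 3 had a CHRONO-only region (GAPDH, ENO1 and PDK2) and 2 a U2OS-only region (the glucose transporters SLC2A1 and SLC2A8), against 2.09% and 0.225% of all genes. At equal list lengths ENO1 and PDK2, the latter a pyruvate dehydrogenase kinase, remained. ENO1, an enolase, scored 107.15 and 258.16 and lay under a Myc peak. SLC2A1 scored 50.06 and 54.43, at the low end of the U2OS lists. Of 30 MYC targets and ribosome biogenesis genes, 3 were CHRONO-only (NCL, NOLC1 and ENO1) and 0 U2OS-only, with 7 in all 4 lists, NCL among them through a second region. Complex I had 2 of 34 (NDUFA11 and NDUFB8), the cell cycle list 2 of 30 (CCND2 and MCM3), and the cytosolic ribosomal proteins 1 of 30 (RPS2), all CHRONO-only. Of 19 genes of MYC, MAX and their partners, MXI1 and MLX were CHRONO-only and MXD4 was U2OS-only. Of 24 clock output genes SLC2A1 was U2OS-only. At equal list lengths NCL, NOLC1, NDUFA11, MCM3 and MLX were no longer CHRONO-only, and ENO1, NDUFB8, CCND2, RPS2 and MXI1 still were. No gene of the lists of clock kinases and ligases (33), glucocorticoid-induced genes (22), lysosome and autophagy (30), nuclear receptors (37) or markers of other cell types (20) was in either class. Counts this small cannot be read as a property of a list.

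Of the 19 core clock genes, 11 had a region of all 4 lists within 1 kb of the start, against 2.77% of all genes. A CHRONO-only or U2OS-only region lay there in 0 of 19, against 2.09% and 0.225% of all genes. With shares this low, 0 of 19 cannot be read as a property of the clock genes. These 11 were PER1, PER2, PER3, CRY1, CRY2, BHLHE40, BHLHE41, NR1D1, NR1D2, DBP and TEF, the feedback repressors and output factors of the clock. The U2OS lists held a peak at the start of 12 of the 19 genes at both times, and the U2OS-CHR lists at 12 and 13. BMAL1 itself had a start peak in the U2OS-CHR 4 h list alone, with a score of 54.49. CIART, which encodes CHRONO, had a peak within 1 kb of its start in each of the 4 lists, though no single region there held all 4. These peaks were number 778 of U2OS at 0 h, 850 at 4 h, and 1835 and 2121 of the longer U2OS-CHR lists.

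The clock genes' regions did not keep 1 order in both lines. To compare order over the same regions, the 1627 regions of all 4 lists were ranked by score in each list. The region at CRY1, a cryptochrome repressor, was number 20 at 0 h and 26 at 4 h in U2OS, and 193 and 195 in U2OS-CHR. The region at CRY2 was number 8 and 6 in U2OS, and 93 and 63 in U2OS-CHR. At HLF, a PAR-bZIP factor, a region inside the gene (chr17:55264695-55265148) was number 338 and 275 in U2OS, and 1527 and 1602 in U2OS-CHR. In each of these 3 genes both U2OS ranks were above both U2OS-CHR ranks.

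BHLHE41, a repressor of E-box transcription, had the opposite order, with numbers 18 and 15 in U2OS against 6 and 1 in U2OS-CHR, for a region outside the gene (chr12:26113777-26117595). NR1D1, which encodes REV-ERB alpha, was number 4 at 0 h in U2OS and number 1 at 0 h in U2OS-CHR, and at 4 h it shared a score of 3100 with 2 other regions, at numbers 3 to 5 in U2OS and 2 to 4 in U2OS-CHR, so its order could not be told. Of the 12 clock genes with a shared region in the gene or within 5 kb, 6 ranked higher in both U2OS lists, 1 ranked higher in both U2OS-CHR lists and 5 overlapped, with tied scores given their whole range of ranks. Over all 1627 regions, 28.3% ranked higher in both U2OS lists and 28.9% in both U2OS-CHR lists. Across these regions Spearman's rho was 0.74 between the U2OS times, 0.86 between the U2OS-CHR times and 0.55 to 0.57 between lines, as a description over regions that are not independent replicates. Of the 100 highest regions, 85 were shared between the U2OS times, 76 between the U2OS-CHR times and 57 to 59 between lines.

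**Figure D5:**
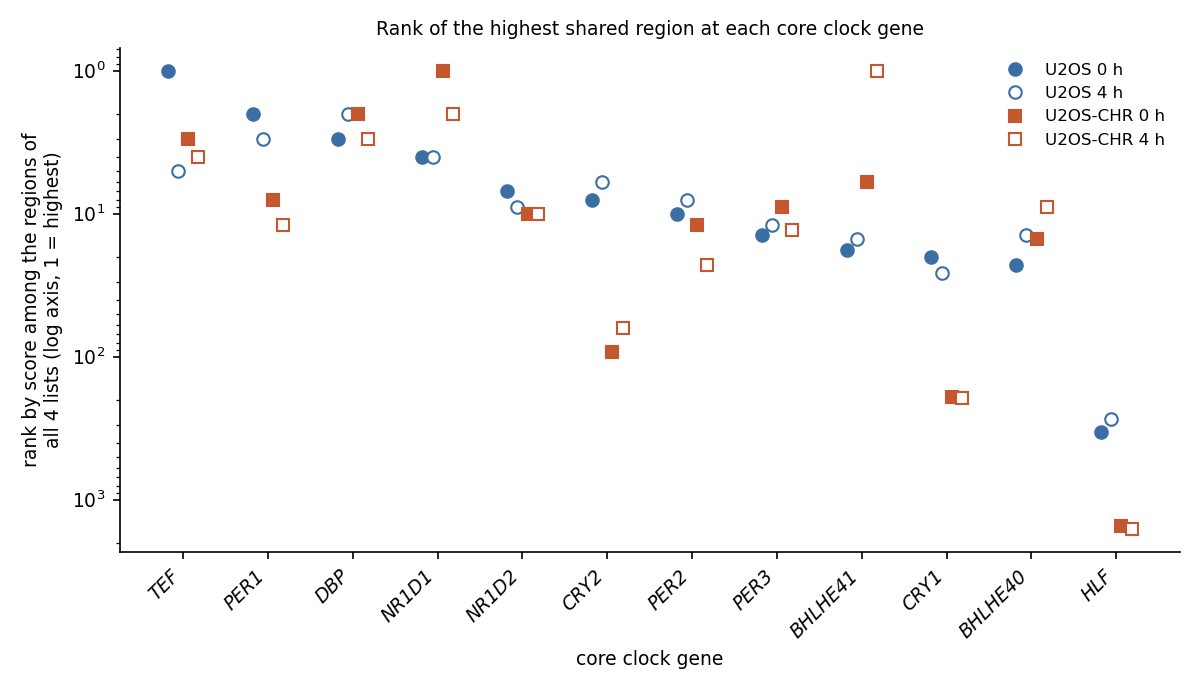
Rank by score of the highest shared region at each of 12 core clock genes (vertical axis, log scale, 1 being the highest of 1627 regions), with U2OS as circles and U2OS-CHR as squares, filled at 0 h and open at 4 h; tied scores (PER1, NR1D1 and TEF in U2OS at 4 h, NR1D1, DBP and TEF in U2OS-CHR at 4 h) are drawn in genome order. CRY1, CRY2 and HLF sit lower in both U2OS-CHR lists, and BHLHE41 sits higher (6 and 1 against 18 and 15).

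Line-specific regions were found near some clock genes, beyond their starts. Inside BHLHE41, chr12:26123038-26123548 was CHRONO-only under both settings. RORA, an activator of BMAL1 transcription, held 1 region of each class inside the gene, U2OS-only at chr15:60804938-60805289 and CHRONO-only at chr15:61227232-61227724, and the first kept its class at equal list lengths. BHLHE40 had a CHRONO-only region inside the gene and another 31084 bp away, and a U2OS-only region 10214 bp away. At equal list lengths a region at HLF (chr17:55264732-55265148) became U2OS-only, since its U2OS-CHR peaks scored 61.66 and 57.02, under the lowest scores kept. CRY2 then also had 2 U2OS-only regions, 1 inside the gene and 1 at 3268 bp from it.

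By chromosome, the CHRONO-only share of regions was 10.1% on chromosome 1 and 10.5% on X. U2OS-only regions made up 2.45% of all regions, 1.97% on chromosome 1 and 1.16% on chromosome 18, the lowest. The highest share was 7.87% on chromosome 21, from 7 of 89 regions (3.86 to 15.4 by Wilson interval). CHRONO-only regions had another region of their class within 100 kb in 22.9% of cases, U2OS-only ones in 10.3% and regions of all 4 lists in 30.1%, and at equal list lengths in 11.4%, 10.9% and 27.2%. The median distance to the next region of the class was then 0.963 Mb for CHRONO-only and 1.44 Mb for U2OS-only regions.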

How the data were processed

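ChIP-seq peak lists were used as deposited: 12 BMAL1 lists and 1 Myc list. The 3 input samples were not analysed here. Per the submitters' processing notes, MACS 1.4.2, bedtools and HOMER 4.10.3 and the build hg38 were used, without the role of each. What aligner and control were used, and the read depth, is not given in the sources used here. A score from the authors comes with each peak, deposited without a stated definition. It was never under 50 and was used to rank or filter within a list. The alternative at a score of at least 100 set the same cut in every list, though the scale may differ between lists.

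Peaks sharing at least 1 bp were joined into regions over the 4 lists of 0 and 4 h with Python 3.11.15 (NumPy 2.4.6, SciPy 1.17.1, matplotlib 3.10.9). Equal list lengths kept the highest scores of the longer list at each time, ties in genome order. Genes came from the RefSeq table of GRCh38, the assembly of hg38, with starts from the promoter table for 15842 of 20037. Of the 374 entries of the 14 gene lists, 1 was not found, and 2 further genes are not reported here. Wilson 95% intervals cover counting error only. Lines were compared by a two-sided exact paired sign-flip permutation test over 8 to 20 h. The joining of peaks was tested on simulated data. Named genes were the core clock list, the 20 highest genes of each class, up to 4 members of each other list and the 10 highest regions of each class, of which the text describes a part. The regions, gene lists and tests were chosen with earlier results of these data known. Alternatives for list length, ties, score, overlap, window and times are given in the closing section. A genome sequence was not used here, so motifs were searched in promoters only.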

Additional observations from a re-analysis of the deposited data

How the results depend on the processing

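Joining rules mattered little: an overlap of 50% of the shorter peak, centres within 500 bp, joining within 500 bp, peak-by-peak counting at 0 h and chromosomes 1 to 22 and X gave 1232 to 1364 CHRONO-only and 287 to 310 U2OS-only regions. List length and score mattered more, and in each such alternative the regions were classed anew from the peaks kept. CHRONO-only regions numbered 630 at equal lengths, 632 with ties reversed, 608 with all 4 lists at 3397 peaks and 653 at a score of at least 100; U2OS-only regions numbered 439, 440, 409 and 91. With 1 time alone the counts were 3642 to 5089 and 1398 to 2089, since fewer lists had to hold a peak. With a window of 5 kb the share with a gene start was 40.0% of CHRONO-only and 20.6% of U2OS-only regions. It was 32.8% for CHRONO-only regions at a score of at least 100, and 24.0% with stated starts only, an alternative chosen after seeing the data. The Myc share of CHRONO-only regions was 13.5% at equal lengths and 19.8% at a score of at least 100, and that of U2OS-only regions 8.79% at that score. The alternatives for CCAAT were chosen after seeing the data: the U2OS-only share was 51.7% to 62.9% with 1 time alone and 66.7% with 16 and 20 h, and the CHRONO-only share 27.3% at a score of at least 100. The cause was not tested. Leaving out 1 of the other 4 times gave line differences of 29.2 to 45.2 points for CHRONO-only regions and -12.0 to 0.66 for U2OS-only regions, the positive value being without 20 h. At a score of at least 100 they were 40.9 and -17.6 points.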

Other observations

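Among the promoters with U2OS-only regions, SLC2A1, HNRNPR, SIN3A, ETFA, MVD, SDF2L1, CHCHD6, OXNAD1 and DPH3 held CCAAT without CACGTG, and DVL2 held CACGTG 3 times beside 1 CCAAT. CENPX and LRRC45, a divergent pair on chromosome 17, held CCAAT 5 and 4 times. These names were chosen after their motifs were seen.

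By 5 Mb window, CHRONO-only regions were most numerous at 40 to 45 Mb of chromosome 1, with 15 of 67 regions (22.4%), against 10.5% of all regions. They made up 12 of 49 (24.5%) at 65 to 70 Mb of chromosome 15 and 14 of 118 (11.9%) at 45 to 50 Mb of chromosome 19. At equal list lengths the chromosome 1 and 15 windows held 10 of 57 and 6 of 35, against 7.02% of all regions. U2OS-only regions were most numerous at 85 to 90 Mb of chromosome 16, the window that holds the pair inside KLHDC4. They were 6 of 84 regions there (7.14%), against 2.45% of all regions. These windows were picked for their high counts among all windows, and no clustering was tested.

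CHRONO-only regions with no U2OS-CHR peak but some U2OS peak at 8 to 20 h numbered 21 of 1287, and U2OS-only regions with no U2OS peak but some U2OS-CHR peak at these times numbered 44 of 301. At equal list lengths these counts were 31 of 630 and 46 of 439.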
